A study of Homo sapiens with 16 samples.

Results

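An alternative 5' splice site variation is a choice between 2 or 3 ends of the same exon, all joined to 1 common 3' splice site, so that the mRNA keeps more or less of the exon's end. In HL60 cells with and without the CDK7 inhibitor SY-351, 41 variations of this kind were found in 41 genes, of 6716 splicing variations in 3700 genes in the authors' deposited table. They were taken as the entries with alternative 5' splice sites, no alternative 3' splice site, no exon skipping, no retained intron and 2 or 3 junctions. Of the 41, 30 had 2 junctions and 11 had 3. In 20, all on the minus strand, the shared exon was the one whose end varied. In 21, all on the plus strand, the variation was seen from the exon downstream, so this split follows the strand.

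HL60 is a human myeloid leukaemia line, grown here as wild-type cells. The cells were kept for 5 h in 50 nM SY-351 or, as the control, in the solvent DMSO. Polyadenylated RNA was sequenced from 4 numbered replicates of each group, with 2 technical repeats apiece: 16 records in all, and 8 columns of counts. The labels do not say whether replicates were separate cultures. The p-values therefore measure only the spread between these samples, which may be technical.

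CDK7 is the kinase subunit of the general transcription factor TFIIH, and it phosphorylates the C-terminal domain of RNA polymerase II and other cyclin-dependent kinases. Most splicing takes place while the polymerase is still transcribing. The 5' splice site is first recognised by the U1 small nuclear ribonucleoprotein, which pairs with the last bases of the exon and the first of the intron, and is later checked by U6. Sites that fit U1 less well can compete with a stronger neighbour, and their use depends on bound proteins and on the pace of transcription.

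Counts assigned to genes totalled 104 to 124 M in the DMSO libraries and 43.3 to 77.9 M in the SY-351 libraries. MPO, the myeloperoxidase of promyelocytes, measured 19000 to 33600 CPM in the 8 libraries. CPM in this paragraph are counts scaled to each library's total, without TMM factors. CD3E, MS4A1, HBB, ALB and EPCAM, markers of other cell types, stayed at or below 3.49 CPM. PECAM1 was at 0.578 and 0.280 CPM in DMSO 1 and 2 and at 15.9 to 25 CPM elsewhere. DMSO replicates 1 and 2 stood apart from all other libraries, with Pearson's r of 0.73 to 0.79 across genes, which are not independent replicates. These 2 correlated with each other at 0.983, DMSO 3 and 4 at 0.987, and the SY-351 libraries among themselves at 0.987 or more. The myeloid surface receptor CD33 was at 3.73 and 2.04 CPM in DMSO 1 and 2 but at 76.9 CPM or above elsewhere. CTSG was also lower there, at 55.4 and 12.7 CPM beside 338.6 CPM or above. Other markers of HL60 cells went the other way in DMSO 1 and 2. SPI1 had 1733 and 1766 CPM beside at most 436, and CEBPE 878 and 825 CPM beside at most 255. MYC had 4058 and 3924 CPM beside at most 1766. Results from counts are therefore given with and without DMSO 1 and 2. The sources used here do not name the libraries behind the splicing table, and the part of these 2 libraries in the splicing differences was not tested.

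The table gives for each junction the expected usage in each group, in percent of the variation's junction reads, the expected difference, and the posterior probability that the difference reached 20 points. It has no values per sample, so these usages carry no replicate error and no test. They are the authors' values and are called deposited usage below. The expected difference is an estimate of its own and can be smaller or larger than the gap between both usages. At 1 site of RPL15 it was 4.36 points, where usage was 56.0% in the control and 73.0% under SY-351. For the rising site of UBE2O it was 65.4 points, with usages of 5.8% and 69.8%. A variation is called where the probability was at least 0.95 for 1 junction or more. The rising site is the one with the largest difference upwards under SY-351, and the falling site the one with the largest difference downwards. A junction is de novo where the authors' table marks it as absent from their annotation.

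The sequences of these sites show what was chosen. The table uses another genome build than GRCh38, so junctions were found in GENCODE release 29 by gene and intron length, and 56 of 56 annotated junctions of 40 genes matched exactly 1 intron. De novo sites were then placed by their distance from the annotated one. NBPF12 was not matched. The sites below belong to called variations, and the pairs of MARCH5 and KDM6A show both alternatives. Each line gives the last 12 exonic bases and the 12 bases that follow when that site is used, with the first 6 intronic bases in capitals, as read from GENCODE transcripts on GRCh38.
MARCH5 upstream site, de novo (chr10:92349776-92349799, plus strand): ctacaatagttgGTAAATtgatgt
MARCH5 downstream site, annotated (chr10:92349826-92349849, plus strand): aggacaatcttgGTAAGAcggctt
KDM6A upstream site, de novo (chrX:45085904-45085927, plus strand): atattggcccagGTGACTgtgaat
KDM6A downstream site, annotated (chrX:45085968-45085991, plus strand): cttctgtgaaaaGTAGGTttccaa
UBE2O upstream site, annotated (chr17:76400210-76400233, minus strand): ttcccagccaagGTAGAGccagcc
SENP2 upstream site, de novo (chr3:185606377-185606400, plus strand): gccatagcaaagGTAATCcagaga
UHRF2 upstream site, annotated (chr9:6497257-6497280, plus strand): attggagagctgGTAAGCcagtca
HEATR5B upstream site, de novo (chr2:37076935-37076958, minus strand): tttccagaaacgGTAAATaatcta
SUCO upstream site, de novo (chr1:172588851-172588874, plus strand): gaggaagaggagGCAAGTccatct
In 8 of these 9 the intron would begin with GT, the usual first 2 bases of an intron, and in SUCO with GC, the rarer alternative.

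In most of these variations usage shifted, in part, towards an upstream site under SY-351. In 31 of the 41 variations the rising site was the upstream one, which shortens the exon, and in 10 it was the downstream one, which lengthens it. Of the 22 called variations, 17 moved to the shorter and 5 to the longer exon. The called share was 53.7% of the 41, beside 55.7% of all 6716 variations, so it was near the background. The largest difference had a median of 31.8 points in the 41 and of 31.5 points in all variations. The smallest was 20.5 points, in TDRD7. The whole table starts at a largest difference of 11.7 points, so variations that stayed alike are not among its entries and none can be described. ANKRD42 lay just inside the limit with a probability of 0.952, and ZNF669 just outside it with 0.922.

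**Figure D1:**
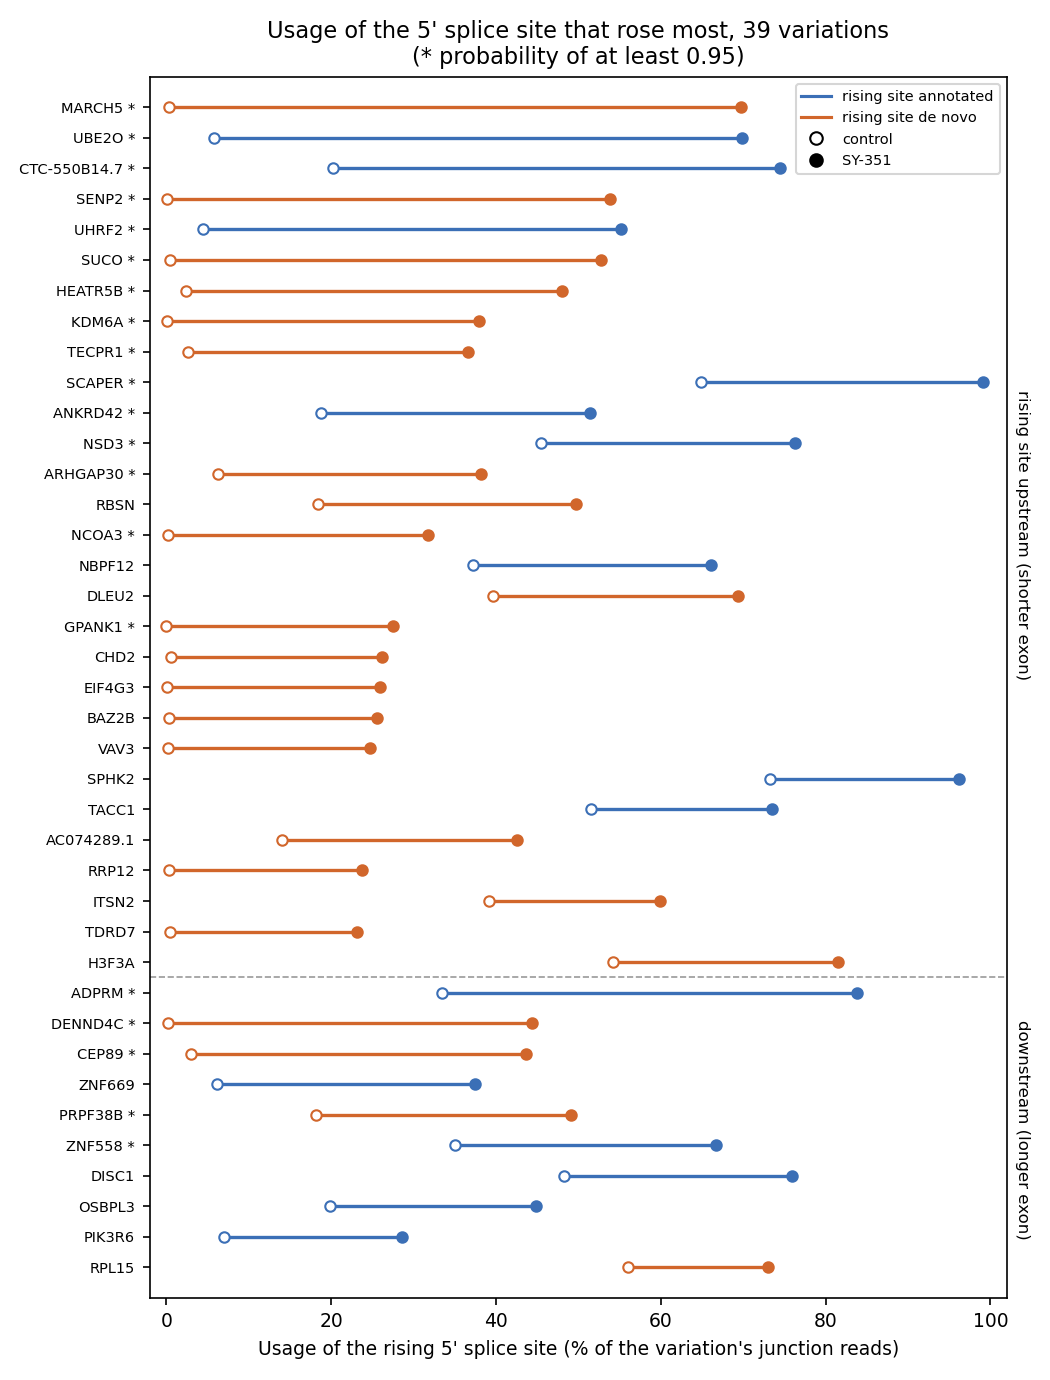
Deposited usage of the rising 5' splice site in percent (x axis) for 39 of the 41 genes (y axis), with open circles for the control, filled circles for SY-351, orange for de novo and blue for annotated sites; an asterisk marks the 20 called variations among them and the dashed line divides shorter from longer exons. Most orange lines start close to 0, with a median of 0.55% in the control and 43.2% under SY-351 over the 24 shown.

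The rising site was de novo in 26 of the 41 variations (63.4%), 22 of them upstream, and annotated in 15. Over all 6716 variations the rising junction was de novo in 47.1%. In the 26, deposited usage had a median of 0.7% in the control and of 43.2% under SY-351, and 18 of them were below 5% in the control. The 15 annotated rising sites started higher, at a median of 33.4%, and reached 69.8%. Of all 35 de novo junctions in these variations, 33 had an expected difference above 0 (94.3%), beside 66.7% of the 16224 de novo junctions in the whole table and 87.1% (27 of 31) in the variations with only alternative 3' splice sites. Of the 35, 25 were below 5% in the control and had little room to fall, so this share is no test of direction. The whole table, with 31149 junctions in 6716 variations beside 93 in 41, is no like comparison. The 33 include values near 0, such as 0.0019 points at a site of CEP89 whose deposited usage fell from 1.6% to 0.7%. De novo junctions were 37.6% of the junctions here and 52.1% of those in the whole table. In 14 variations the rising site passed 50% only under SY-351.

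Among called variations with a de novo upstream site, the rise was largest in MARCH5, which encodes an E3 ubiquitin ligase of the outer mitochondrial membrane. Its upstream site went from a deposited usage of 0.3% in the control to 69.7% under SY-351, and the annotated site 50 nt downstream from 99.7% to 30.3%. Both sites, printed above, match the consensus in 6 of 9 positions. The control used the site almost not at all, and it became the main end of the exon.

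SENP2 encodes a protease that removes SUMO from proteins. Its de novo site, 110 nt upstream of the annotated one, went from a deposited usage of 0.1% to 53.9%. SUCO, which encodes a SUN-domain membrane protein, had the longest distance, with a de novo site 1064 nt upstream inside the same long exon. Deposited usage of this site was 0.5% in the control and 52.8% under SY-351, while an annotated site between them stayed at 0.0% and 0.1%. These 2 genes, like MARCH5, passed from almost no use to about even use or more.

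GPANK1, whose protein carries a G-patch and ankyrin repeats, had 3 sites, and both upstream ones were de novo. Deposited usage of its annotated site fell from 99.9% to 51.3%, with 27.5% at a de novo site 655 nt upstream and 21.3% at another 503 nt further on, which had 0.0% and 0.1% in the control. Neither of those 2 sites reached the probability limit by itself (0.859 and 0.388), and the call rests on the fall of the annotated site. TECPR1, which tethers autophagosomes to lysosomes, had 2 de novo upstream sites, and only the farther one moved, from 2.6% to 36.6% in deposited usage beside 0.6% and 4.2% for the nearer one.

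HEATR5B, an endosomal HEAT-repeat protein, had a de novo site 36 nt upstream with a deposited usage of 2.4% in the control and 48.0% under SY-351. KDM6A encodes the histone H3 lysine 27 demethylase UTX. Deposited usage of its de novo site, 64 nt upstream, was 0.1% and 38.0%. NCOA3, a nuclear receptor coactivator, had a de novo site 313 nt upstream, with 0.2% and 31.8% in deposited usage. ARHGAP30, a GTPase-activating protein, differed from these in that its de novo site, 171 nt upstream, already had 6.3% in the control, and it reached 38.2%. In these 4 genes the annotated site kept the larger share under SY-351.

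Upstream sites that were annotated also rose. UBE2O encodes a large ubiquitin-conjugating enzyme that also acts as a ligase. Its upstream site, 75 nt before the other, went from a deposited usage of 5.8% to 69.8%. UHRF2, a RING-type ubiquitin ligase that binds hydroxymethylated DNA, went from 4.4% to 55.2% at a site 92 nt upstream. CTC-550B14.7, an antisense transcript listed in GENCODE as AC011476.3, had sites only 10 nt apart, and the upstream one went from 20.2% to 74.5%. In all 3 the main end of the exon changed over.

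In SCAPER, which encodes a cyclin A-associated protein of the endoplasmic reticulum, the upstream site was the main one in both groups. Its deposited usage went from 64.9% to 99.1%, which left 0.9% for the site 18 nt downstream. ANKRD42, an ankyrin-repeat protein, had 18.8% and 51.4% at a site 84 nt upstream. NSD3, a histone H3 lysine 36 methyltransferase, had 45.5% and 76.3% at the middle of 3 sites, 33 nt before the site that fell from 54.4% to 20.7%. In these 3 genes both sites were already in use in the control.

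The 5 called variations that moved to the longer exon had a median distance of 352 nt, beside 84 nt for the 17 that moved to the shorter one. ADPRM, an ADP-ribose and CDP-alcohol diphosphatase, used its downstream site, 88 nt away, at 33.4% in the control and 83.8% under SY-351 in deposited usage. DENND4C, an exchange factor for the GTPase Rab10, took up a de novo site 352 nt downstream, with 0.2% and 44.4%. CEP89, a centrosomal protein needed for cilia, took up a de novo site 444 nt downstream, with 3.0% and 43.7%. In both genes the new exon end lies beyond the annotated exons of GENCODE.

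ZNF558, a zinc finger protein, had 35.0% and 66.7% in deposited usage at an annotated site 561 nt downstream. PRPF38B is named for the yeast pre-mRNA splicing factor Prp38 and was the only member on a list of 76 core spliceosome components. Its downstream site is de novo and lies 10 nt away, and deposited usage was 18.2% in the control and 49.1% under SY-351. Together with CTC-550B14.7 it had the shortest distance.

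Distances between the rising and the falling site ran from 10 to 1064 nt, with a median of 105 nt. Both variations up to 12 nt were called, 1 in each direction. All 9 variations of 13 to 60 nt pointed to the shorter exon, and 5 of them were called. Of 17 at 61 to 200 nt, 15 pointed to the shorter exon and 7 were called. Above 200 nt, 6 of 13 pointed to the shorter exon and 8 were called. The downstream sites that rose were thus mostly far away, although these are small numbers and no test was made.

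**Figure D2:**
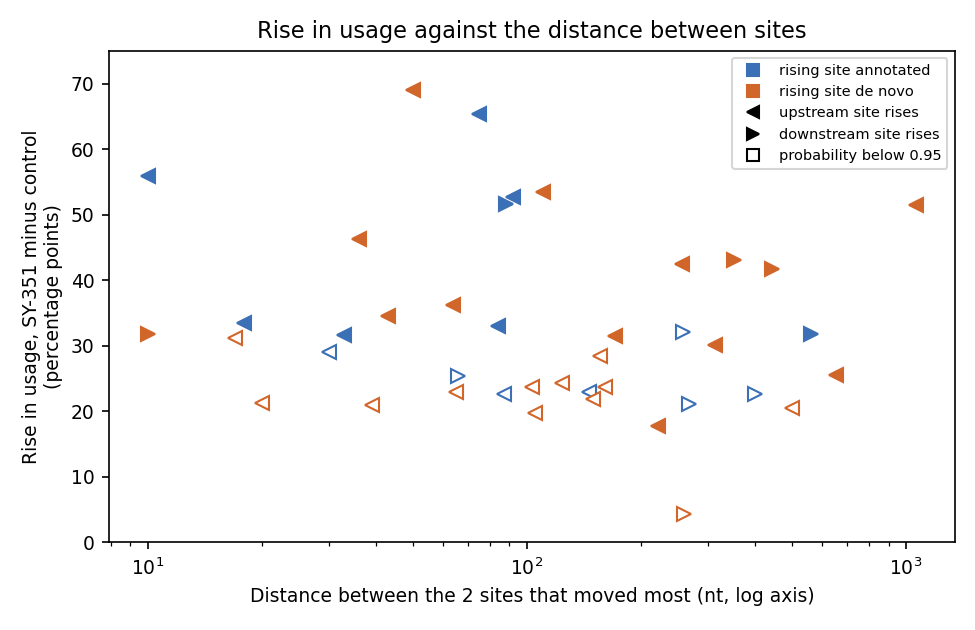
Expected difference in usage of the rising site (y axis, percentage points, SY-351 minus control) against the distance to the falling site (x axis, nt, log axis), 1 point per variation, with colour for annotated or de novo, the triangle pointing left for upstream and right for downstream sites, and open symbols for probabilities below 0.95. Between 13 and 60 nt all 9 triangles point left, and the called changes span the whole range from 10 to 1064 nt.

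The 19 variations below the limit showed the same kinds of choice with smaller differences, between 20.5 and 32.1 points. In 14 the rising site was upstream, de novo in 11 of them, and in 5 downstream, de novo in 1. EIF4G3, a scaffold of the translation initiation complex, had a de novo site 103 nt upstream with 0.1% in the control and 25.9% under SY-351 in deposited usage (probability 0.798). CHD2, a chromatin remodeller, BAZ2B, a bromodomain protein, and VAV3, a guanine nucleotide exchange factor, had de novo upstream sites at 0.6%, 0.3% and 0.2% in the control and 26.2%, 25.6% and 24.7% under SY-351. RRP12, which acts in ribosome assembly, and TDRD7, a tudor-domain protein, had 0.3% and 0.5% in the control and 23.8% and 23.2% under SY-351. RRP12, CHD2, BAZ2B, VAV3, TDRD7 and the others named in this and the next paragraph were chosen after their values were seen, EIF4G3 and RPL15 by their list.

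In RPL15, a protein of the large ribosomal subunit, the annotated upstream site had 36.9% in the control and 9.2% under SY-351 in deposited usage. The de novo sites 260 and 265 nt downstream had 56.0% and 6.9% in the control and 73.0% and 17.7% under SY-351. Their expected differences were only 4.36 and 2.78 points. H3F3A, which encodes histone H3.3, had 2 de novo sites 105 nt apart, with 54.2% in the control and 81.5% under SY-351 for the first, and 26.0% and 0.5% for the second. Both genes have near-identical copies in the genome, so reads at these junctions may be shared with them. The second of these sites of H3F3A is 1 of the 2 de novo junctions, of 35, with an expected difference below 0.

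**Figure D3:**
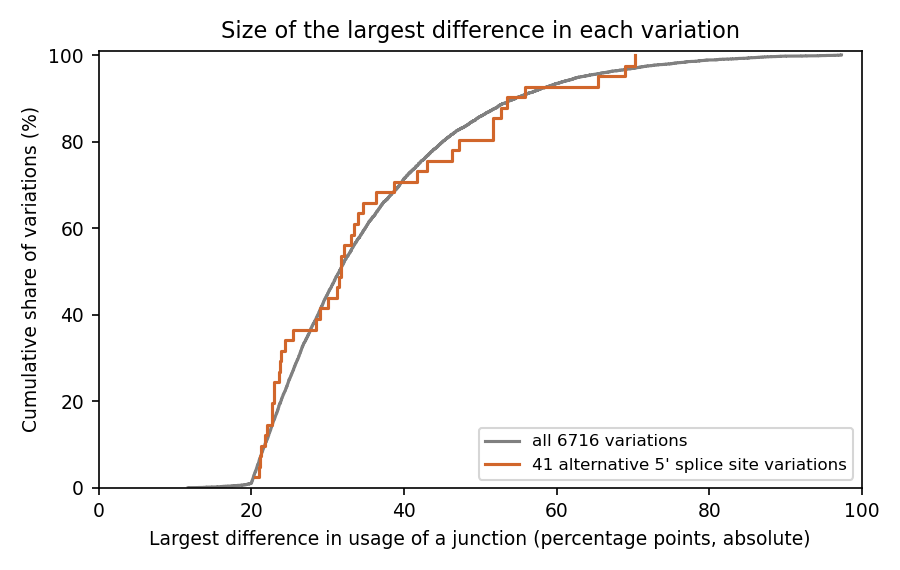
Cumulative share of variations (y axis, %) by their largest absolute difference in usage (x axis, percentage points), in orange for the 41 alternative 5' splice site variations and in grey for all 6716. The lines run close together, with medians of 31.8 and 31.5 points.

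Losing or gaining the stretch between sites keeps the reading frame only where its length is a multiple of 3. The distance was a multiple of 3 in 18 variations and not in 23. For 40 genes the stretch between the sites could be placed in GENCODE. It was wholly coding in 25, of which 12 were a multiple of 3, partly coding in 5 and outside coding sequence in 10. UBE2O with 75 nt, HEATR5B with 36 nt, SCAPER with 18 nt and ARHGAP30 with 171 nt lie in coding exons and would lose whole codons. MARCH5 with 50 nt, SENP2 with 110 nt, UHRF2 with 92 nt, KDM6A with 64 nt, TECPR1 with 43 nt and NCOA3 with 313 nt lie in coding exons at distances that shift the frame. Levels of protein were not measured. Where the rising site was annotated, 10 of 15 distances were a multiple of 3, and where it was de novo, 8 of 26.

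Sequence was read for the 52 of 91 sites that lie inside an annotated exon, since only then do transcripts hold the first intronic bases. Of these, 50 began with GT, and of the 28 de novo ones 26 did. Of 49319 annotated sites read in the same way, 93.4% began with GT. GT made up 5.1% of all dinucleotides in the 36 stretches that could be read. How the search for junctions treated other first bases is not known here, so that share is no test of the sites. The exceptions among the 52 were SUCO, with GC, and TDRD7, with GA, printed here because it is neither form.
TDRD7 upstream site, de novo (chr9:97460252-97460275, plus strand): actggatactgaGAAAGTacctct
The junction of TDRD7 had the smallest difference of all 41.

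Each site was compared with CAGGTAAGT, the most frequent base at the last 3 exonic and the first 6 intronic positions of 49319 annotated sites read in the same way. Those 49319 are the part of 300549 annotated sites that could be read, and may differ from the rest. They matched in a median of 6 of 9 positions, and 28.1% in at least 7. The 24 annotated sites of the variations had a median of 6, with 4 at 7, the highest found. The 28 de novo sites had a median of 5 and a range of 2 to 7, with 3 at 7. De novo sites that were the rising site had a median of 6 (22 sites). Only 13 falling sites could be read. In 9 variations both sites could be read, and the rising site matched in fewer positions in 3, in more in 2 and in as many in 4. KDM6A was among the 2 with more, with 7 at the upstream and 6 at the downstream site. A match to these letters does not measure how well a site is used.

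**Figure D4:**
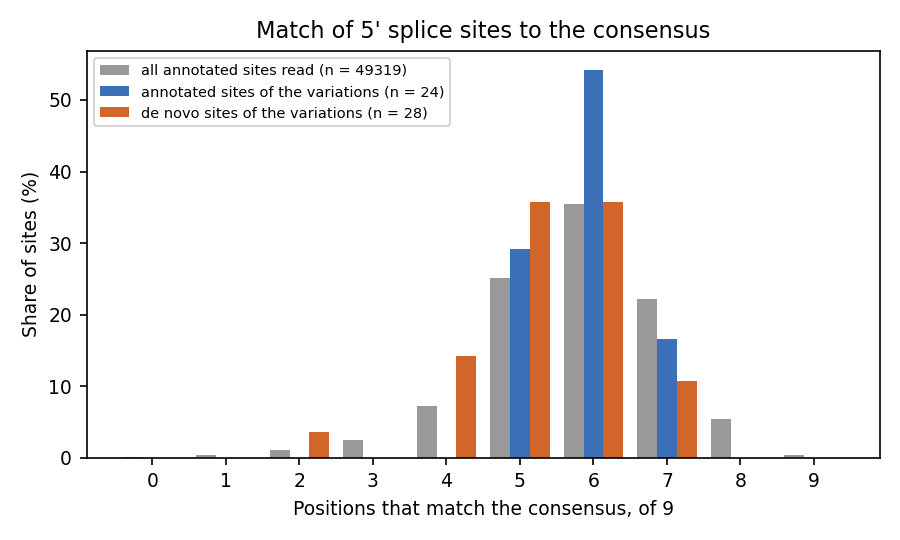
Share of 5' splice sites (y axis, %) by the number of positions, of 9, that match the consensus (x axis), with grey bars for 49319 annotated sites read in GENCODE, blue for 24 annotated and orange for 28 de novo sites of the variations. All 3 groups are centred at 5 or 6 positions.

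The mirrored rule, for alternative 3' splice sites alone, found 44 variations in 44 genes. Of these 12 were called, or 27.3%, beside 22 of 41 here. They pointed to the shorter exon in 26 and to the longer in 18, and the rising site was de novo in 21. The median largest difference was 27.0 points, beside 31.8 points for the 5' splice sites. Both sets come from 1 comparison with no values per sample, so the difference between them was not tested.

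Most genes had no other entry. The table held 47 further variations in 19 of the 41 genes, of which 31 were called and 2 included a retained intron, and 22 genes had only the alternative 5' splice site. No further variation used 1 of the same junctions. KDM6A had 8 others, 7 of them called, and CHD2 and BAZ2B had 4 each, of which 3 and 1 were called.

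Gene counts asked whether genes with a moved 5' splice site also differed in RNA level. They cover the whole gene with introns, and fewer cells and less RNA per cell cannot be told apart in them. The count table had 36 of the 41 genes, and the others, CTC-550B14.7, GPANK1, DLEU2 and AC074289.1 among them, were not analysed here. With all 8 libraries, 5 of the 36 differed, 4 lower and 1 higher (edgeR quasi-likelihood test, Benjamini-Hochberg adjusted p below 0.05). Over all 15473 genes tested 16.5% differed, 13.6% lower and 2.91% higher, and 20.4% of the 3083 tested genes with any splicing variation. The count of 5 became 1 without DMSO 1, without DMSO 2 or without any 1 SY-351 library, 10 without DMSO 3, and 13 with DESeq2. Without DMSO 1 and 2, an alternative added after the data were seen, 22 of the 36 differed, 18 lower and 4 higher. The background was then 48.3% of all genes, 26.4% lower and 21.9% higher, and 64.1% of genes with any variation. Both counts were thus near those of other genes with splicing variations. The median log2 fold of the 36 was -0.21 with all libraries and -0.37 without DMSO 1 and 2, beside -0.21 and -0.24 for genes with any variation.

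UBE2O had the smallest adjusted p of the 36. CPM from here on are scaled with TMM factors. UBE2O measured 214, 205, 61.1 and 81.2 CPM in DMSO 1 to 4 and 14.3, 15.2, 14.7 and 12.6 CPM in SY-351 1 to 4. The groups did not overlap, and all SY-351 libraries lay far below the lowest control. The log2 fold of UBE2O was -3.31 ± 0.48 (SE, edgeR adjusted p = 0.00595). Without DMSO 1 and 2 it was -2.30 ± 0.15 (SE, edgeR adjusted p = 1.04e-48). UBE2O thus had both a change of its main 5' splice site and less RNA.

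SPHK2, a sphingosine kinase, had 194, 212.5, 18.6 and 24.2 CPM in DMSO 1 to 4 and a range from 7.80 to 10.4 CPM under SY-351. The groups did not overlap, but DMSO 1 and 2 set most of the fold, which was -3.63 ± 0.85 with them and -1.22 ± 0.16 without (SE, edgeR adjusted p = 0.0249 and 6.82e-13). Its splicing variation was below the limit, with 73.2% and 96.2% deposited usage of the upstream site.

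RRP12 measured 172, 123, 74.9 and 102 CPM in DMSO 1 to 4 and 48.4 to 54.1 CPM with SY-351, without overlap. This is a log2 difference of -1.19 ± 0.31 (SE, edgeR adjusted p = 0.0334), which became -0.75 ± 0.16 without DMSO 1 and 2 (SE, edgeR adjusted p = 6.03e-06). PRPF38B measured 118, 106, 63.0 and 85.5 CPM in DMSO 1 to 4 and 41.6 to 49.7 CPM with SY-351, also without overlap. The log2 fold here was -1.03 ± 0.27 (SE, edgeR adjusted p = 0.036), which became -0.68 ± 0.16 without DMSO 1 and 2 (SE, edgeR adjusted p = 4.67e-05). H3F3A was the only one higher, with 134, 100.3, 115 and 166 CPM in DMSO 1 to 4 and 266 to 297 CPM with SY-351. That gives a log2 fold at 1.12 ± 0.28 (SE, edgeR adjusted p = 0.03), which became 1.02 ± 0.17 without DMSO 1 and 2 (SE, edgeR adjusted p = 5.56e-09). The calls of SPHK2, RRP12, PRPF38B and H3F3A ended when any 1 SY-351 library, DMSO 1 or DMSO 2 was left out, with adjusted p up to 0.135. That of H3F3A also ended in edgeR with DESeq2 size factors and with total count scaling (adjusted p = 0.0666 and 0.0869), and that of PRPF38B with no filter on low counts (edgeR adjusted p = 0.0534). With the replicate number as a block all 5 calls ended, with edgeR adjusted p from 0.0699 for UBE2O to 0.18 for PRPF38B.

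**Figure D5:**
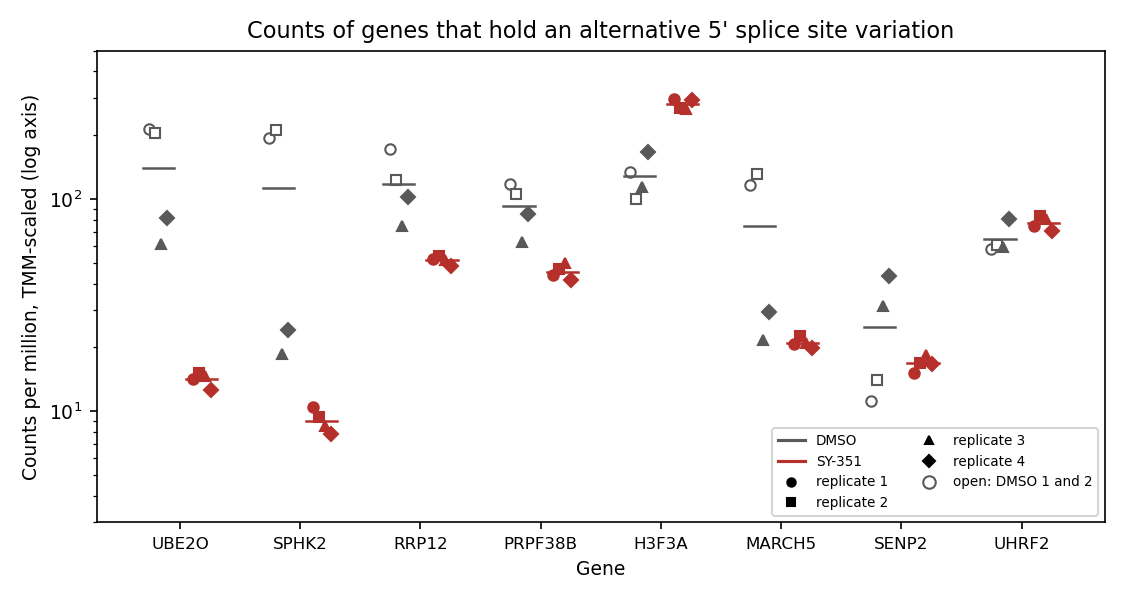
TMM-scaled CPM (y axis, log axis) in each library for the 5 genes with a called difference in counts and for MARCH5, SENP2 and UHRF2 (x axis), in grey for DMSO and red for SY-351, with a marker shape per replicate, open symbols for DMSO 1 and 2, and a bar at the mean of 4. SY-351 points lie below all DMSO points for UBE2O, SPHK2, RRP12 and PRPF38B, above them for H3F3A, and overlap them for the other 3.

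Genes with a called variation differed among themselves in how their counts moved. Of the 19 counted genes whose variation was called, 2 differed in count with all libraries, UBE2O and PRPF38B, and 11 without DMSO 1 and 2. Of the 17 whose variation was not called, 3 and 11 did. MARCH5 had 117, 131, 21.6 and 29.3 CPM in DMSO 1 to 4. Under SY-351 it had from 19.99 to 22.7 CPM, so the groups overlapped. MARCH5 had a log2 fold at -1.83 ± 0.60 (SE, edgeR adjusted p = 0.0711), which became -0.25 ± 0.16 without DMSO 1 and 2 (SE, edgeR adjusted p = 0.191). UHRF2 measured 58.0 to 80.8 CPM in DMSO and 70.5 to 83.0 CPM with SY-351. The fold, on the log2 scale, was 0.25 ± 0.23 (SE, edgeR adjusted p = 0.489), and 0.16 ± 0.16 when DMSO 1 and 2 were left out (SE, edgeR adjusted p = 0.462).

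SENP2 had 11.2, 14.1, 31.4 and 43.5 CPM in DMSO 1 to 4. Under SY-351 it had from 15.2 to 18.5 CPM. The SY-351 libraries lay between the 2 pairs of controls, and the log2 fold was -0.57 ± 0.45 (SE, edgeR adjusted p = 0.41). Without DMSO 1 and 2 it was -1.13 ± 0.15 (SE, edgeR adjusted p = 1.37e-12), the only setting tried in which SENP2 was called, while the sign was the same in all of them. KDM6A measured 40.1 to 71.4 CPM in DMSO and 28.7 to 35.8 CPM with SY-351, without overlap. Its log2 fold was -0.72 ± 0.26 (SE, edgeR adjusted p = 0.0958), which became -0.42 ± 0.16 without DMSO 1 and 2 (SE, edgeR adjusted p = 0.0191).

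Of the other called variations with counts, the log2 folds of TECPR1 and ARHGAP30 were -2.05 ± 0.67 and -1.02 ± 0.33 (SE, edgeR adjusted p = 0.0711 and 0.0707). They were -0.19 and -0.44 without DMSO 1 and 2, and only ARHGAP30 was then called (edgeR adjusted p = 0.346 and 0.013). Those of NSD3 and CEP89 were both -0.58 (edgeR adjusted p = 0.161 and 0.206), and those of SUCO and ANKRD42 were -0.19 and -0.22 (edgeR adjusted p = 0.619 and 0.652). Without DMSO 1 and 2 these 4 genes were all called lower. NSD3 then had -0.39 and CEP89 -0.78 (edgeR adjusted p = 0.0294 and 1.57e-05), and SUCO had -0.38 and ANKRD42 -0.51 (edgeR adjusted p = 0.0323 and 0.0123). NCOA3, HEATR5B, SCAPER and DENND4C had 0.98, 0.76, 0.69 and 0.65 (edgeR adjusted p = 0.354 to 0.683), and 0.20, -0.19, -0.02 and -0.15 without DMSO 1 and 2 (edgeR adjusted p = 0.318 to 0.931). ADPRM and ZNF558 had 0.11 and 0.01 (edgeR adjusted p = 0.935 and 0.989), and both turned negative in several settings. Without DMSO 1 and 2 they had -0.72 and -0.36, and only ADPRM was called (edgeR adjusted p = 0.0284 and 0.064). Across the 36 genes, 9 had all SY-351 libraries below all DMSO libraries and 3 had all above. Over all genes tested these shares were 18.2% and 15.5%.

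Of 76 core spliceosome components, which include the parts of U1 and U6, 24 had some splicing variation in the table and 1, PRPF38B, an alternative 5' splice site. In counts, 6 of 68 tested were lower and 0 higher (edgeR), and 27 lower and 14 higher without DMSO 1 and 2. Of 78 SR proteins, hnRNPs and other splicing regulators, 35 had some variation and 0 an alternative 5' splice site. Their counts were lower for 5 and higher for 0 of 72, and 20 lower and 20 higher without DMSO 1 and 2 (edgeR). Of 115 ribosomal proteins and translation factors 18 had some variation and 2, RPL15 and EIF4G3, an alternative 5' splice site, with 2 lower and 3 higher in count of 105, and 10 lower and 83 higher without DMSO 1 and 2. RPL15 itself measured 524, 116, 560 and 773 CPM in DMSO 1 to 4 and 1342 to 1436 CPM with SY-351. Log2 folds of this gene were 1.47 ± 0.56 (SE, edgeR adjusted p = 0.108), which became 1.06 ± 0.18 without DMSO 1 and 2 (SE, edgeR adjusted p = 8.14e-09). The lists of 54 factors of 3' end processing, 100 of RNA polymerase II transcription and 125 of DNA repair and replication had 22, 29 and 55 genes with some variation, and 0 with an alternative 5' splice site. In counts 4, 12 and 24 of these were lower and 0, 0 and 1 higher, of 50, 91 and 122 tested, and 25, 38 and 65 were lower and 9, 14 and 18 higher without DMSO 1 and 2 (edgeR). Over all genes tested 13.6% were lower and 2.91% higher (edgeR), and 26.4% and 21.9% without DMSO 1 and 2. Some splicing variation was found in 3126 of 18081 genes with counts. Only 41 genes hold an alternative 5' splice site variation, so 0 to 2 in 1 list say little about it.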

How the data were processed

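The splicing values were deposited as the authors' own comparison: usage as a fraction, shown here in percent, its difference and a posterior probability. Per the file headers, the columns carry names used by MAJIQ and Voila. The deposited difference, control minus inhibitor, was turned round, and its sign matched both usages in 17265 of 17265 junctions that differed by at least 5 points. The authors' gene table holds read counts from featureCounts 1.6.2 over whole genes, introns included, per the file headers. GRCh38 and DESeq2 are named in the submitters' processing notes. The table has 8 count columns, and 0 columns were not used.

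The test of counts was the two-sided quasi-likelihood F test of edgeR 4.0.16 (R 4.3.3), after TMM scaling and filterByExpr, with robust glmQLFit and group as the only term. Its p-values were adjusted over all genes by Benjamini-Hochberg, with a threshold of 0.05. The 18093 rows were matched to symbols through RefSeq (17867 rows). The counting of strand-overlapping genes can lose shared reads. Splice site letters come from GENCODE release 29 transcripts. The lists and members were chosen with earlier results of these data known. The rule for names took all called variations (2 of them are counted in all totals but not reported here by themselves), the 2 largest in each class of distance and the 2 largest of each of 6 gene lists. Counts are given for the genes of called variations, and for others chosen after their values were seen. Scripts were tested on simulated data. Alternatives were DESeq2 1.42.0, other scalings, no filter, a replicate block and leaving out each library. The same-numbered samples had correlations of -0.18 to 0.01 after removal of group means, so numbers do not pair them.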

Additional observations from a re-analysis of the deposited data

Results flagged for a closer look

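Among 44 groups of 4 libraries examined for the genes with counts named above, 2 held a library far from the other 3, and chance alone marks about 1 in 20 groups. UHRF2 measured 80.8 CPM in DMSO replicate 4, beside 58.02 to 61.02 CPM in the other DMSO libraries. KDM6A measured 28.7 CPM in SY-351 replicate 1, where replicates 2 to 4 had 34.9 to 35.8 CPM. Neither gene was called with all 8 libraries.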

How the results depend on the processing

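The count of 22 called variations became 24 at a probability of 0.90, 18 at 0.99, 15 with 2 junctions only and 22 with each pair of sites taken once. It was 7 without variations that hold a de novo junction. An expected difference of at least 0.10 whatever the probability keeps all 41, since the smallest was 20.5 points, so it is no check. The share of called variations moving to the longer exon was 22.7%, and 24.4% to 28.6% under its 3 alternatives. The 24.4% is the share over all 41 variations, called or not, since its limit of 5 points left none out. The count of 5 genes differing in counts was 13 with DESeq2, 6 with DESeq2 size factors in edgeR, 7 with total count scaling, 4 with no filter and 22 without DMSO 1 and 2. It lay between 1 and 10 when 1 library was left out: 1 without DMSO 1, without DMSO 2 or without any 1 SY-351 library, 10 without DMSO 3 and 7 without DMSO 4. With the replicate number as a block it was 0 of 36 (6 at an unadjusted p below 0.05), and 0 of all genes (3648 unadjusted). Over all genes, the median log2 fold was 0.0037, and -0.11 with DESeq2 size factors in edgeR.

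For 22 single genes under 14 settings, 238 log2 folds kept direction and side of the threshold, 32 lost the call, 23 gained one and 15 changed sign. None of the 15 was of a gene called with all 8 libraries. ADPRM had -0.21 with total count scaling, -0.26 to 0.75 when 1 library was left out (below 0 without DMSO 1 or DMSO 2) and -0.72 without both. ZNF558 had -0.10 with DESeq2, -0.093 with its size factors, -0.11 with total count scaling, -0.17 to 0.28 when 1 library was left out (below 0 without DMSO 1, DMSO 2 or SY-351 2), and -0.36 without DMSO 1 and 2. Without DMSO 1 and 2, HEATR5B had -0.19, DENND4C -0.15 and SCAPER -0.023. ANKRD42 had -0.37 to 0.019 when 1 library was left out, above 0 without DMSO 4. The cause was not tested. Usage has no values per sample, so its error cannot be given.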
